A study of Rattus norvegicus with 12 samples.

Results

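The genes described here are the collagens, the rat genes whose array name has the form Col, a number, a and a number (Col1a1, Col5a3). The array carries 54 probes for 37 such genes. Each gene was read from its brightest probe among those that rose well above background on 3 or more of the 12 arrays. This left 34 collagen genes of 19357 genes measured. The 3 genes left out are Col4a3, Col4a4 and Col6a6, whose probes were well above background on 0 arrays. They are named without a level. Of the 34, 33 were well above background on all 12 arrays, and Col10a1 was so on 3.

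The series asks how dioxin given to the mother acts on pituitary mRNA of the rat fetus. Total RNA came from pituitaries of Wistar rat fetuses at gestational day 18, and each array was hybridised with Cy3-labelled RNA of a single sample. Male and female fetuses each gave 3 control arrays and 3 arrays of the TCDD treatment, which makes 4 groups. TCDD is the dioxin that activates the aryl hydrocarbon receptor. The labels name the strain, age, sex and treatment of each group, and give no dose, day of dosing, vehicle or litter, nor whether an array holds a single gland or a pool. Replicates are therefore only known to be separate arrays of a group. The p-values measure the spread between these samples, which may be technical.

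Collagens are secreted or membrane-bound proteins in which 3 chains wind into a triple helix. Fibrillar collagens form the cords of connective tissue, fibril-associated collagens (FACIT) coat those cords, and type IV chains form the sheet of basement membranes. Beaded filaments of type VI lie between the fibrils and cells, short-chain collagens form hexagonal nets, and transmembrane collagens stay anchored in the cell surface. In the pituitary, collagens lie in the capsule, around blood vessels and in the basement membrane that surrounds hormone cell cords. Mesenchyme, pericytes and other stromal cells make most of the fibrillar chains, endothelium and pericytes much of type IV, and Schwann cells of peripheral nerve the rat chain Col5a3 and type IV chains.

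Levels are given on a log2 scale relative to the 75th percentile of the same array, so a value of 0 is the level of that percentile. A level of one gene is not set against that of another, since probes differ in brightness. A difference is exposed minus control on this scale, and 1 unit is a doubling.

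The labels of treatment, tissue and sex were checked first. Ahrr, which encodes a repressor of the dioxin receptor, lay between -0.22 and 0.68 on the 6 exposed arrays and between -6.26 and -4.98 on the 6 controls. Cyp1a1, the receptor's classical target, lay between -2.58 and -1.19 against -7.97 and -7.08. Of 20 genes that define pituitary tissue, 19 were measured and 15 were well above background on every array, and Pomc, the corticotrope and melanotrope prohormone, lay between 5.74 and 7.00 where it was read (11 arrays). Eif2s3x, an X-linked gene known to escape X inactivation, lay between 1.85 and 1.92 on the 6 male arrays and between 2.51 and 2.60 on the 6 female arrays. It was chosen for this check after its values were seen. Genes of sensory ganglion neurons, which are no part of the pituitary, were high on 6 arrays and low on the other 6. Avil, the ganglion gene used to divide the arrays, lay between 0.18 and 1.63 on the second array of both control groups, on male TCDD 1 and 2, and on the female TCDD arrays 1 and 3. On the remaining 6 it lay between -3.68 and -3.32. High Avil thus fell on 4 exposed and 2 control arrays, and results are given with this division beside them. The arrays came from 3 slides. Slide 1 held the 3 male controls and male TCDD 1, slide 2 held male TCDD 2 and 3 with female control 1 and 2, and slide 3 held female control 3 with the 3 exposed females. With slide as a fixed block in the fit, the male difference therefore sets male TCDD 1 alone against the 3 male controls. The female difference then sets the 3 exposed females against female control 3 alone, and the value over both sexes is the mean of these.

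Sequences at annotated starts are shown for 2 places, and no value on the arrays bears on start sites themselves. Both come from RefSeq, build GRCr8. The first lies between Col4a2 and Col4a1, which encode the paired chains of ordinary basement membrane collagen and start back to back, Col4a1 to the right and Col4a2 to the left. It is shown because the levels of these 2 genes moved together over the arrays. Only 76 bases separate the annotated genes, chr16:84885521-84885596 on the plus strand, with a GC content of 78.9%.

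Col4a2-Col4a1: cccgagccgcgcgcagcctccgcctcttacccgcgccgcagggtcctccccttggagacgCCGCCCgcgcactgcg

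The capitals mark the only GC box in this gap, GGGCGG, which reads here on the minus strand. CCAAT, searched on both strands, is not in these letters. The second sequence is the 196 bases before the outermost annotated start of Col5a3, chr8:27626003-27626198 on the minus strand, with a GC content of 70.4%. It is shown because Col5a3 had the largest difference of any collagen with exposure.

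Col5a3: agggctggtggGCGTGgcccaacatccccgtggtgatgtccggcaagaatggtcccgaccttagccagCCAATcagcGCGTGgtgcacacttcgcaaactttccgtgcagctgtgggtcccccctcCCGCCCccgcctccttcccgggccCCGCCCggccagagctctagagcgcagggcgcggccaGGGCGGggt

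The capitals mark GCGTG, the core of the binding element of the dioxin receptor (2 matches), CCAAT (1 match) and GGGCGG (3 matches, 2 of them read on the minus strand as CCGCCC). The matches do not overlap. A 5-letter word is common. Over windows of 300 bases (250 before a start to 50 after it, both strands), GCGTG occurred in 31.1% of 27457 RefSeq promoters and in 11 of the 27 collagen promoters found in the table (40.7%). GGGCGG occurred in 34.9% of all promoters and in 16 of 27 collagen promoters. CCAAT occurred in 37.7% and in 8 of 27, and TATAAA in 14.3% and in 4 of 27. The promoter of Col1a2 held TATAAA and CCAAT once each, and those of Col5a2 and Col9a2 held none of the 4 words. These are matches of letters, and binding was not measured.

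Over both sexes, no collagen gene differed between exposed and control pituitaries past the threshold. With limma and Benjamini-Hochberg adjustment over all genes, 0 of 34 collagens were called at an adjusted p below 0.05, beside 0.0207% of all genes. At an unadjusted p below 0.05 there was 1 collagen, Col5a3, beside 6.46% of all genes. The median difference of the collagens was -0.02, and that of all genes was also -0.02. Of the 34, 15 lay above 0 (44.2% of all genes did). The middle 50% of the collagens lay between -0.17 and 0.07, and that of all genes between -0.13 and 0.10. The band of the collagens was thus close to that of all genes, and Col5a3 stood far outside it.

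**Figure D1:**
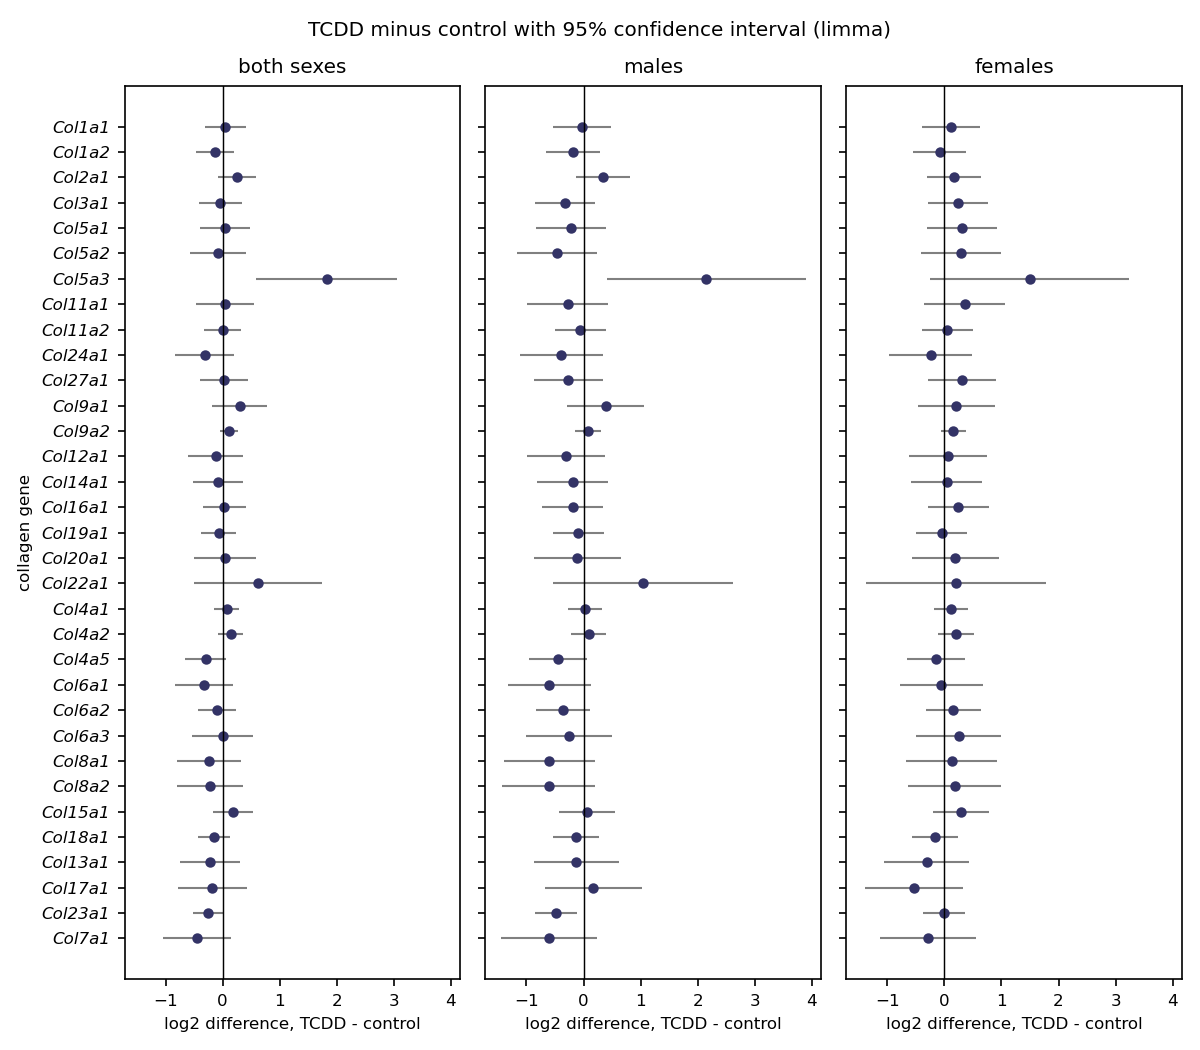
Fitted log2 difference, TCDD minus control, of 33 collagen genes (Col10a1 left out) over both sexes, in males and in females; points are limma estimates and lines their 95% confidence intervals. Only the interval of Col5a3 excludes 0 over both sexes, at 1.83, and in males those of Col5a3 and Col23a1 do.

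Col5a3 encodes the third chain of type V collagen, known in rat as a collagen of Schwann cells and nerve sheaths. In male controls its level was -1.05, 0.26 and -1.31, and in exposed males 2.55, 1.92 and -0.11. In female controls it was -1.54, 0.54 and -1.10, and in exposed females 1.62, -0.24 and 1.02. In each sex the exposed and control ranges overlapped, because control 2 lay above the lowest exposed array. The difference over both sexes was 1.83 (standard error 0.56, 95% interval 0.59 to 3.06), with an adjusted p of 0.67. It was 2.15 in males and 1.50 in females, and the difference between these was not past the threshold. Without any 1 array the value stayed between 1.55 and 2.22. With slide as a fixed block it was 2.58, not past the threshold. That value rests on male TCDD 1 as its only exposed male and female control 3 as its only female control. Its probe lies on rn4 chromosome 8 from 19789207 to 19789266.

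The level of Col5a3 also followed the division by Avil. On the 6 arrays with high Avil it ran from 0.26 to 2.55 with a median of 1.32. On the other 6 it ran from -1.54 to -0.11 with a median of -1.08, so the ranges did not overlap. Such separation upward was shown by 2 of 34 collagens and by 7.92% of all genes. Markers of Schwann and satellite glia moved with this gene. Of 14 markers listed, 13 were measured, and their mean level ran from -1.36 to 0.04 on the arrays with high Avil and from -2.62 to -2.24 on the others. All 13 had a positive difference with exposure over both sexes, beside 44.2% of all genes, with a median of 0.87. By limma 0 were called, and 2 of 13 had an unadjusted p below 0.05, beside 6.46% of all genes. The log2 of their summed level ran from 3.00 to 4.97 in female controls, 3.29 to 5.17 in exposed females, 3.38 to 4.61 in male controls and 3.31 to 6.06 in exposed males.

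Within each side of the division, exposed arrays still lay above controls for Col5a3. Among arrays with high Avil the 4 exposed ones ran from 1.02 to 2.55 and the 2 controls from 0.26 to 0.54, a difference of means of 1.38. Among arrays with low Avil the 2 exposed ones stood at -0.24 and -0.11, and the 4 controls ran from -1.54 to -1.05, a difference of 1.07. Col5a3 was the 1 collagen of 34 with exposed above control on both sides without overlap, a pattern that 0.672% of all genes showed. The Schwann marker mean of those 2 exposed arrays with low Avil was -2.37 and -2.28, inside the range of the 4 controls beside them. Avil itself was a little higher in them (-3.40 and -3.32) than in these controls (-3.68 to -3.48). Among arrays with high Avil, 3 of the 4 exposed lay above both controls in the glial mean.

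With log2 Avil as a covariate in limma, the difference of Col5a3 was 1.09 (standard error 0.13, 95% interval 0.81 to 1.38) at an adjusted p of 0.0253. It was then the only collagen called, beside 0.0568% of all genes. This call depended on single arrays. It held in 5 of the 12 fits that left out an array, fits added after the data were seen, and was lost without male control 1, 2 or 3, male TCDD 2, female control 2, or female TCDD 1 or 2. The adjusted p then ran from 0.0172 to 0.21 and the difference from 1.01 to 1.22. With the mean of the glial markers in place of Avil, a setting chosen after the data were seen, the difference was 0.80 and the adjusted p 0.0549. The part that nerve tissue on the arrays plays in the difference with exposure was not tested beyond these values.

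**Figure D2:**
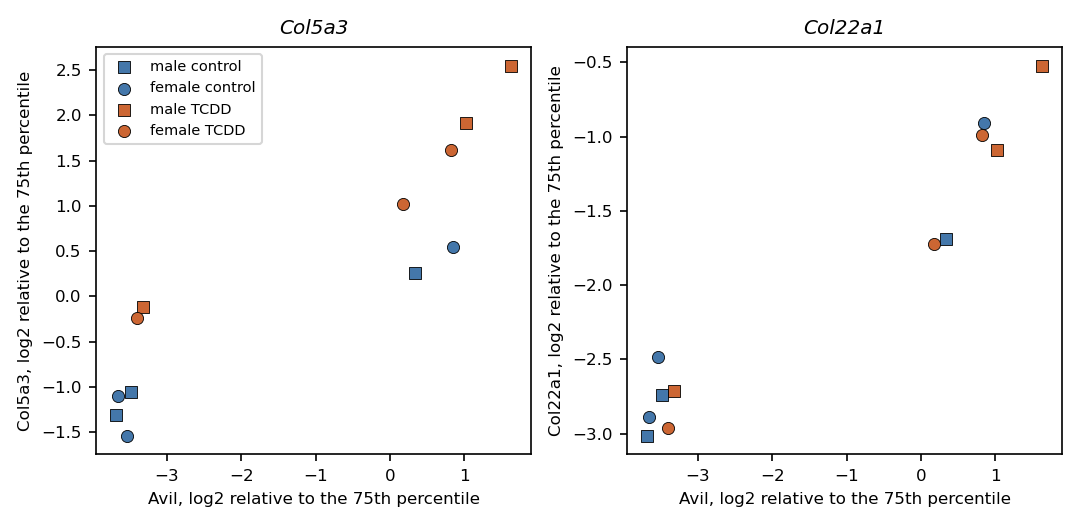
Level of Col5a3 (left) and Col22a1 (right) against that of Avil on each of the 12 arrays, on the log2 scale defined above; blue is control, orange TCDD, squares male, circles female. Col5a3 lies higher on exposed than on control arrays at either end of the Avil axis, while for Col22a1 exposed and control arrays are mixed at both ends.

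Col22a1, a FACIT collagen known from junctions between tissues such as muscle and tendon, separated the same arrays. It ran from -1.73 to -0.52 on the arrays with high Avil and from -3.01 to -2.48 on those with low Avil, a difference of medians of 1.77. In male controls it stood at -2.74, -1.69 and -3.01, in exposed males at -0.52, -1.09 and -2.71, in female controls at -2.48, -0.91 and -2.89, and in exposed females at -0.99, -2.96 and -1.73. Exposed and control arrays overlapped in each sex. The difference over both sexes was 0.62 (95% interval -0.50 to 1.74, adjusted p 0.675). It was -0.04 with log2 Avil as a covariate, -0.06 without the 6 arrays with high Avil, and 1.48 with slide as a fixed block, none past the threshold. On the low side of the division the means of exposed and control arrays were -2.84 and -2.78. The probe lies on rn4 chromosome 7 from 109509402 to 109509461.

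Most other collagens lay lower where Avil was high. The median on the high side was below that on the low side for 27 of 34 collagens (79.4%), beside 67.7% of all genes. The median shift was -0.28 for collagens and -0.13 for all genes. In 2 collagens the ranges did not overlap downward, beside 7.85% of all genes. Col6a1, the first chain of type VI, ran from 1.29 to 2.25 on the high side and 2.30 to 2.99 on the low side. Col4a5, the X-linked type IV chain, ran from -2.88 to -2.25 and from -2.22 to -1.79. Col13a1, a transmembrane collagen known from the neuromuscular junction, lay the other way, with medians of -3.43 and -3.70 and overlapping ranges. In whole tissue, fewer cells of a type and less RNA in each cell cannot be told apart.

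In males, 24 of 34 collagens lay below control after exposure and 10 above, and 0 were called (limma), beside 0.0103% of all genes called. At an unadjusted p below 0.05 there were 2, Col5a3 and Col23a1, beside 9.35% of all genes. The median difference was -0.19, against -0.01 for all genes, of which 48.6% lay above 0. This shift rested largely on male TCDD 1. That array was the lowest of all 12 for 21 of 34 collagens (61.8%), beside 31.4% of all genes, and its median deviation from the gene means was -0.58. It also had the highest Avil (1.63) and was the highest array for 22.5% of all genes. Without it the male median was -0.02. Without male control 3 it was -0.08, and without male TCDD 3 it was -0.31. Within slide 1, where male TCDD 1 is the only exposed array, it was -0.62. With log2 Avil as a covariate it was -0.02.

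In females the balance was the other way, with 24 of 34 collagens above control, and 0 were called (limma), beside 0.0103% of all genes. At an unadjusted p below 0.05 there were 0 collagens, beside 2.68% of all genes. The median difference was 0.14, against -0.04 for all genes, of which 40.8% lay above 0. Female TCDD 2 was the highest of all 12 arrays for 15 of 34 collagens (44.1%), beside 15.8% of all genes. The female median was 0.03 without this array, 0.07 without female TCDD 1, 0.04 without female control 2 and 0.31 without female TCDD 3. Within slide 3, against female control 3 alone, it was -0.02.

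The test of the difference between the sexes called 0 collagens (limma), beside 0% of all genes, and 0 had an unadjusted p below 0.05, beside 4.46% of all genes. The male difference was below the female one in 26 of 34 collagens. The median of this gap was -0.23, against 0.05 for all genes, of which 57% lay above 0. The 3 collagens of smallest p were Col23a1 (gap -0.48), Col5a2 (-0.75) and Col6a2 (-0.51), each at an adjusted p of 0.883. The opposite balance of the sexes was therefore not past the threshold for any collagen.

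**Figure D3:**
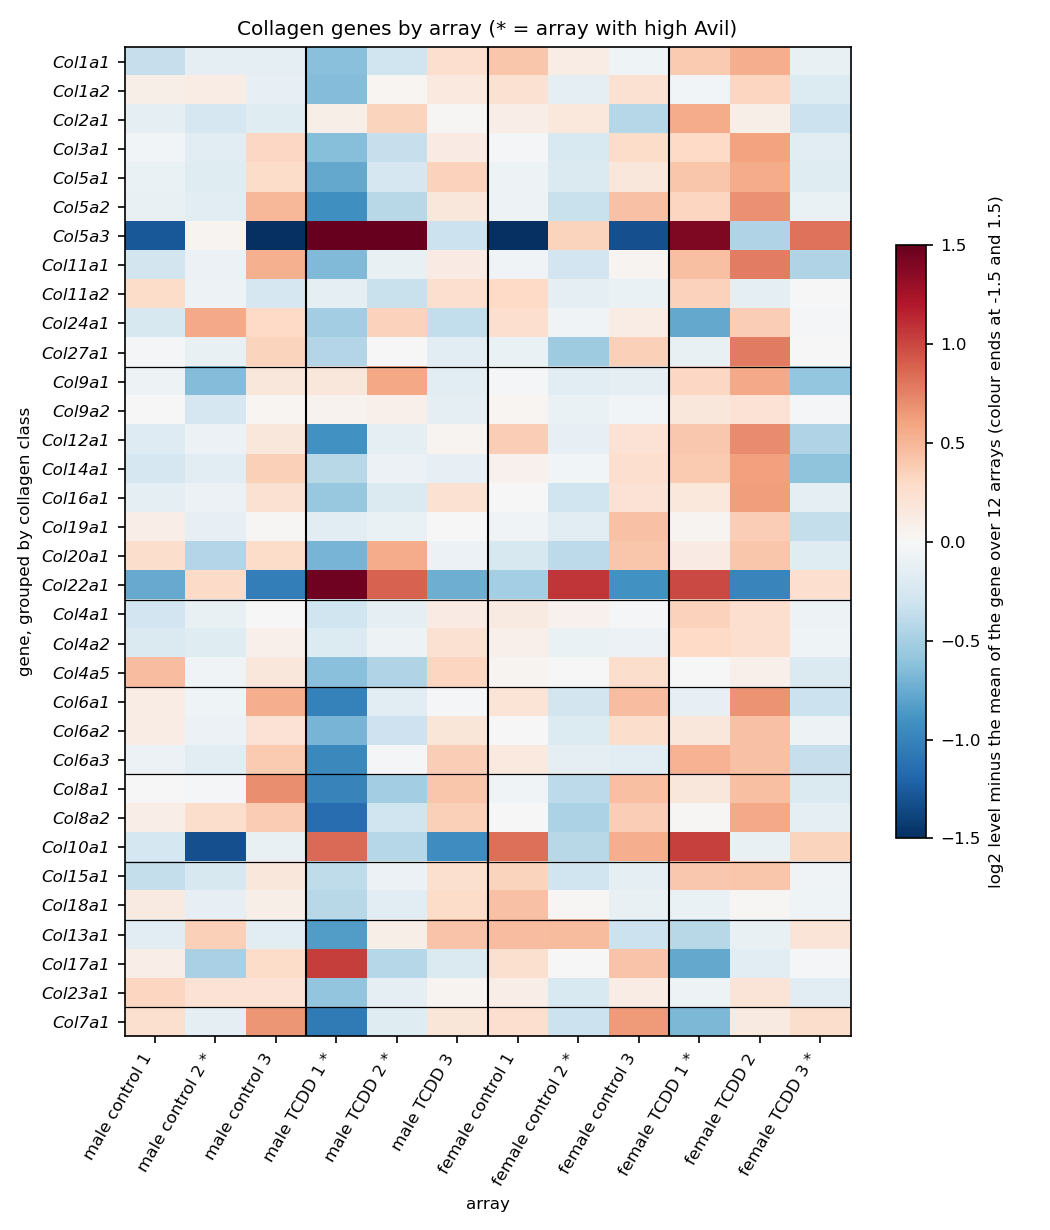
Level of each of the 34 collagen genes on each of the 12 arrays as the log2 deviation from the gene's mean over the arrays, with genes grouped by collagen class and arrays by study group. The column of male TCDD 1 is mostly blue (lowest array for 21 genes) and that of female TCDD 2 mostly red (highest for 15), while Col5a3 and Col22a1 follow the arrays marked with a star.

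Among fibrillar collagens (11 measured), the major chains of connective tissue showed no difference past the threshold. Col1a1 and Col1a2 form type I, the main collagen of bone, tendon and stroma. For Col1a1 the levels were 5.39, 5.59 and 5.59 in male controls, 5.10, 5.42 and 5.98 in exposed males, 6.14, 5.84 and 5.67 in female controls, and 6.12, 6.27 and 5.61 in exposed females. The exposed range enclosed that of controls in both sexes, and the difference was 0.05 (95% interval -0.31 to 0.41). That of Col1a2 was -0.13 (-0.46 to 0.20). Col3a1, the chain of type III in vessels and soft stroma, stood at 5.16, 5.05 and 5.51 in male controls, 4.57, 4.86 and 5.33 in exposed males, 5.17, 4.97 and 5.48 in female controls and 5.50, 5.80 and 5.04 in exposed females. Groups overlapped in both sexes, and the difference was -0.04 (-0.42 to 0.33). The class median was -0.22 in males and 0.24 in females.

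Col2a1, the cartilage collagen that is also made by embryonic epithelia and notochord, was the 1 collagen in which every exposed male lay above every male control, beside 8.39% of all genes. Male controls stood at 1.59, 1.49 and 1.55 and exposed males at 1.82, 2.07 and 1.76. The male difference was 0.34 (95% interval -0.13 to 0.81, adjusted p 0.52). Female controls stood at 1.83, 1.89 and 1.31 and exposed females at 2.30, 1.82 and 1.41, with overlapping ranges, and the difference over both sexes was 0.25 (0.41 with slide as a fixed block). Col11a1, the chain that nucleates type II fibrils, had a difference of 0.04 (-0.46 to 0.54). Cartilage and bone markers (16 of 22 measured) had 12 positive differences over both sexes and a median of 0.12, with 0 called. Of all genes 44.2% lay above 0. In males 10 of these 16 markers lay above 0, beside 48.6% of all genes, with a median of 0.05. In females 14 of these markers did, beside 40.8% of all genes, with a median of 0.32. Their mean level ran from -4.25 to -3.46 in male controls, -3.97 to -3.81 in exposed males, -4.25 to -3.58 in female controls and -4.30 to -3.19 in exposed females. The part of such tissue in the levels of Col2a1 was not tested.

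Of the type IV chains, 3 were measured and 0 were called. Col4a1 stood at 3.08, 3.27 and 3.38 in male controls, 3.08, 3.24 and 3.49 in exposed males, 3.51, 3.44 and 3.34 in female controls and 3.72, 3.63 and 3.29 in exposed females. Its partner Col4a2 stood at -0.14, -0.10 and 0.16, then -0.13, 0.00 and 0.31, then 0.15, -0.02 and -0.02, then 0.38, 0.32 and 0.01 in the same order. In both genes the ranges of exposed and control arrays overlapped in each sex. The differences were 0.07 (95% interval -0.14 to 0.29) and 0.14 (-0.08 to 0.36). Col4a5 had a difference of -0.30 (-0.66 to 0.06, adjusted p 0.67). In males it was -0.45, moving to -0.82 with slide as a fixed block, where male TCDD 1 is the only exposed male compared. It was 0.0034 without the 6 arrays with high Avil. Col4a3 and Col4a4, which join Col4a5 in the specialised network of kidney and lung, were those not above background.

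Type VI chains had male differences below 0 in 3 of 3 genes, with a median of -0.35, and a median of 0.16 in females. Col6a1 stood at 2.42, 2.25 and 2.86 in male controls and at 1.29, 2.14 and 2.30 in exposed males. In females it stood at 2.52, 2.03 and 2.77 in controls and 2.19, 2.99 and 1.99 in exposed fetuses. Male TCDD 1 was the lowest array, and the groups overlapped in both sexes. The difference over both sexes was -0.33 (95% interval -0.84 to 0.19, adjusted p 0.67). Without 1 array it ran from -0.48 to -0.17. It was -0.80 with slide as a fixed block and -0.08 with log2 Avil as a covariate.

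FACIT collagens (8 measured) had medians of -0.10 in males and 0.17 in females. Col9a1 and Col9a2 encode chains of type IX, which coats cartilage fibrils. The difference of Col9a1 was 0.30 (95% interval -0.18 to 0.78). That of Col9a2 was 0.12 (-0.04 to 0.28), and its levels spanned 2.19 to 2.66 over the 12 arrays. Short-chain genes numbered 3. Col10a1, the collagen of hypertrophic cartilage, was not well above background in any male control and in 1 of 3 arrays of each other group, so no fold is given, though its fitted differences are counted among the 34 genes above. Col8a1 and Col8a2, the chains of type VIII in vessel walls, had male differences of -0.60 and -0.61, both with intervals that span 0. In females the differences were 0.13 and 0.18. Both genes were lowest on male TCDD 1. Their medians with high Avil less those with low Avil, -0.73 and -0.58, were the lowest of the 34, with overlapping ranges.

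Transmembrane collagens (3 measured) lay below control in 3 of 3 genes over both sexes, with a median of -0.22 and 0 called. Col23a1 was the 1 collagen in which every exposed male lay below every male control, beside 6.02% of all genes. Male controls stood at -1.64, -1.76 and -1.75 and exposed males at -2.56, -2.12 and -1.93. Female controls stood at -1.87, -2.20 and -1.85 and exposed females at -2.04, -1.78 and -2.13, which overlap. The male difference was -0.49 (95% interval -0.86 to -0.12) at an adjusted p of 0.506. It was -0.84 with slide as a fixed block, where male TCDD 1 is the only exposed male compared, and -0.31 without that array. A second probe of the gene gave -0.45. The probe lies on rn4 chromosome 10 from 37096029 to 37096088.

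Col17a1, the collagen of hemidesmosomes in stratified epithelium, was the 1 collagen with every exposed female below every female control, beside 5.51% of all genes, and 0 collagens lay wholly above, beside 1.46%. Its levels were -5.11, -5.34 and -4.92 in female controls and -6.11, -5.50 and -5.36 in exposed females. The female difference was -0.54 (95% interval -1.39 to 0.32). A further probe of Col17a1 was well above background on 0 arrays and was not used. Male controls stood at -5.24, -5.83 and -5.07 and exposed males at -4.30, -5.77 and -5.56, which overlap. Epithelial and epidermal markers (13 of 14 measured) had 9 below 0 and 4 above in females, where 40.8% of all genes lay above 0. Their female median was -0.43, against -0.04 for all genes, and 0 were called. The 2 of smallest p over both sexes were Dapl1 and Krt5, a keratin of basal epidermis. Dapl1 had a female difference of -0.96 and a male one of -0.85. Those of Krt5 were -1.18, the lowest of the 13 in females, and -0.03. Whether such epithelium has a part in the level of Col17a1 was not tested. Of the remaining named members, Col7a1, the anchoring fibril of skin, had a difference of -0.45 (-1.04 to 0.15) over both sexes. It was -1.03 with slide as a fixed block and -0.17 with log2 Avil as a covariate. Col18a1, a basement membrane collagen that releases endostatin, had a difference of -0.15 (-0.43 to 0.13).

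Between male and female controls, 0 of 34 collagens were called (limma), beside 0.0103% of all genes, and 0 had an unadjusted p below 0.05, beside 5.51%. Col23a1 was the 1 collagen in which every male control lay above every female control, beside 1.93% of all genes, with a difference of 0.26. Col1a1 was the 1 in which every male control lay below, beside 8.64%, with a difference of -0.36 (95% interval -0.87 to 0.15). It was 0.13 with slide as a fixed block. The median difference of collagens was -0.02, against -0.03 for all genes. It was 0.67 with slide as a fixed block. No slide held controls of both sexes, so sex and slide cannot be told apart in these controls. With slide in the fit, the contrast passes through the exposed males on slides 1 and 2.

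Chains that assemble with each other, or whose genes are neighbours, differed in how closely they moved over the arrays, and 10 such pairs were compared. Other pairs of collagens were not compared, so whether closeness is particular to partners or neighbours was not tested. For the back-to-back pair Col4a1 and Col4a2, the SD over the 12 arrays was 0.20 and 0.18, and the SD of their difference was 0.08. Both deviated in the same direction on 11 of 12 arrays. Col3a1 and Col5a2, adjacent protein-coding genes in the RefSeq table, had SDs of 0.34 and 0.45 and a difference with an SD of 0.13, in the same direction on 12 of 12 arrays. Col5a1 and Col5a2, which share the type V trimer and lie on different chromosomes, had SDs of 0.37 and 0.45 and a difference with an SD of 0.15. For Col8a1 and Col8a2 the SDs were 0.48 and 0.47, and that of the difference was 0.17. In these 4 pairs the difference varied less than either gene, as it did for Col6a2 with Col6a1 (0.23 beside 0.30 and 0.46) and with Col6a3 (0.25 beside 0.30 and 0.42).

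In the remaining 4 pairs the difference varied more than at least 1 member. Col9a1 and Col19a1 are adjacent in the table, yet the SD of their difference was 0.36 beside 0.39 and 0.22. Col1a1 and Col1a2 had SDs of 0.35 and 0.26 and a difference with an SD of 0.27, with the same direction on 6 of 12 arrays. Col5a3 and Col5a1, 2 chains of type V, deviated in the same direction on 3 of 12 arrays, and the SD of their difference (1.56) was above that of Col5a3 alone (1.35). For Col9a1 and Col9a2 it had an SD of 0.29 beside 0.39 and 0.13. All genes of an array share its sample, so these SDs are a description.

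**Figure D4:**
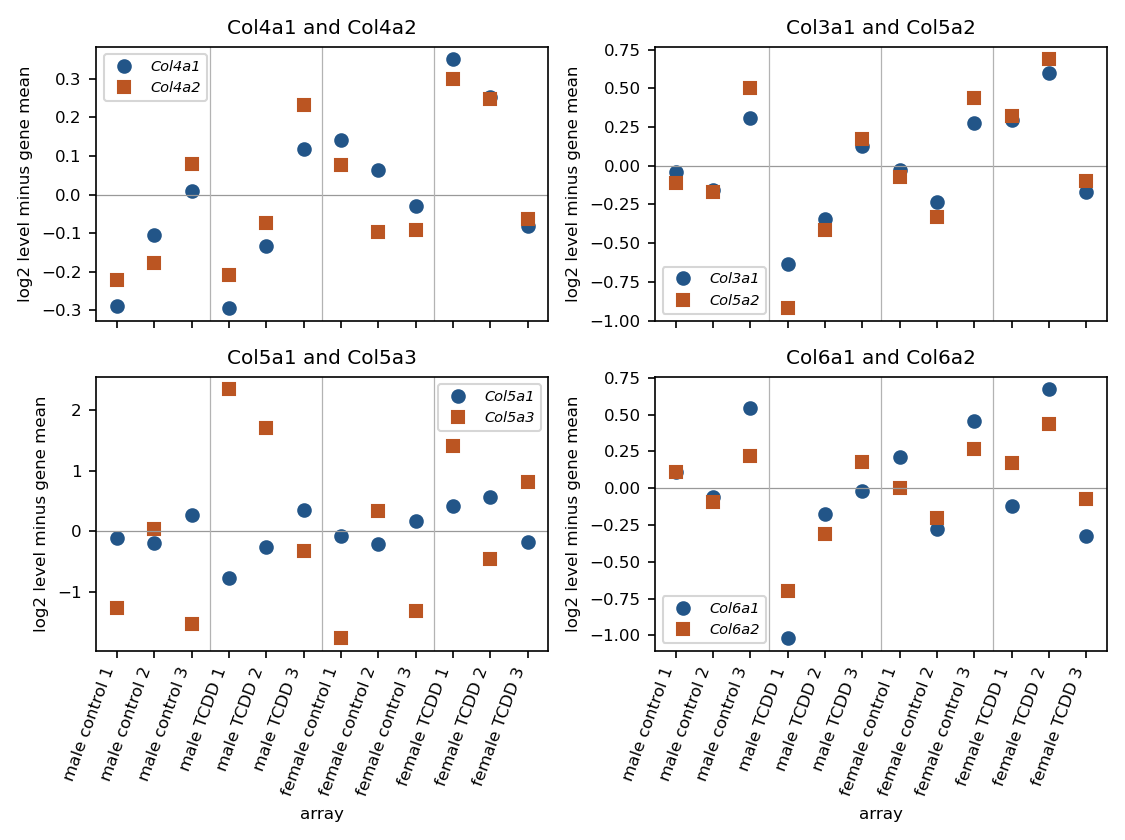
Log2 deviation from the gene's own mean over 12 arrays for 4 pairs of collagen genes, with arrays on the horizontal axis and vertical lines between the study groups. Col4a1 and Col4a2 (SD of the difference 0.08) and Col3a1 and Col5a2 (0.13) lie close together on each array, Col6a1 and Col6a2 (0.23) less so, and Col5a3 departs from Col5a1 on most arrays.

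Genes that make, trim, bind or degrade collagen were read from lists written with earlier results of these data known. In each list 0 genes were called in any of the comparisons of exposure (limma). Of genes for the folding and modification of collagen, most of them enzymes, 20 of 21 were measured, and 2 lay above 0 in males and 15 in females. At an unadjusted p below 0.05 over both sexes there were 3 of these 20, beside 6.46% of all genes. At that level there was 1 of 10 receptors and 1 of 25 matrix partners, and 0 in each of the other 3 lists. The 3 folding and modification genes were Tmem38b, an ion channel of the endoplasmic reticulum (-0.26), Plod2, a lysyl hydroxylase (-0.16), and Glt25d1, a collagen galactosyltransferase (0.18). Among genes that trim and cross-link procollagen (14 of 17 measured), 4 lay above 0 over both sexes, and Loxl1, a lysyl oxidase, stood at -0.31 (95% interval -0.81 to 0.18). Of 10 collagen receptors measured, 3 lay above 0. The adhesion receptor Gpr126, which binds type IV collagen and is needed for Schwann cell myelination, stood at 0.45 (0.13 to 0.76, adjusted p 0.67), and Itga2, an integrin subunit, at -0.25.

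Of 13 genes of collagen breakdown measured, 4 lay above 0, and Timp4, an inhibitor of matrix proteases, stood at 0.82 (95% interval -0.05 to 1.68). Matrix partners such as laminins and small proteoglycans (25 of 28 measured) were split, 13 above 0 and 12 below. Agrn, a basement membrane proteoglycan, stood at 0.24 (0.07 to 0.42), and Ogn, a small proteoglycan, at -0.44. Of 18 genes of collagen transcription and Tgfb signalling measured, 5 lay above 0. Scx, a tendon transcription factor, stood at -0.18 and Tgfbr3, a co-receptor, at 0.37. All medians of these lists over both sexes lay between -0.10 and 0.03.

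Markers of cell types were read on the same arrays, and their lists were written with earlier results known. Mesenchyme and fibroblast markers (22 of 22 measured) had 4 above 0 in males and 16 in females, with medians of -0.36 and 0.12. Their mean was -0.63 on male TCDD 1 and ran from -0.18 to 0.30 on the other 11 arrays. The log2 of their summed level ran from 5.84 to 6.13 in male controls, 5.37 to 6.02 in exposed males, 5.65 to 6.16 in female controls and 5.81 to 6.22 in exposed females. Endothelial markers (14 of 15 measured) had 0 above 0 in males and 9 in females, and macrophage markers (14 of 14) 0 and 10. In these 3 lists 0 genes were called by limma, and 1 in each had an unadjusted p below 0.05 over both sexes (6.46% of all genes did). The gene of smallest p was Gpihbp1, an endothelial anchor of lipoprotein lipase, at -1.03 (95% interval -1.39 to -0.66, adjusted p 0.111). Mural cell markers (12 of 12) had 5 above 0 in males and 10 in females. The low level of male TCDD 1 was not confined to lists of stromal cells. The mean of the pituitary markers was -2.11 on this array and ran from -1.42 to -0.41 on the other 11, and the mean of erythroid markers (11 of 12 measured) was 0.31 beside 0.55 to 1.43. Other lists went the other way on male TCDD 1. The means of sensory ganglion markers (0.79) and of Schwann and satellite glia markers (0.04) were at their highest there. The part of any of these cells in the collagen levels was not tested.

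**Figure D5:**
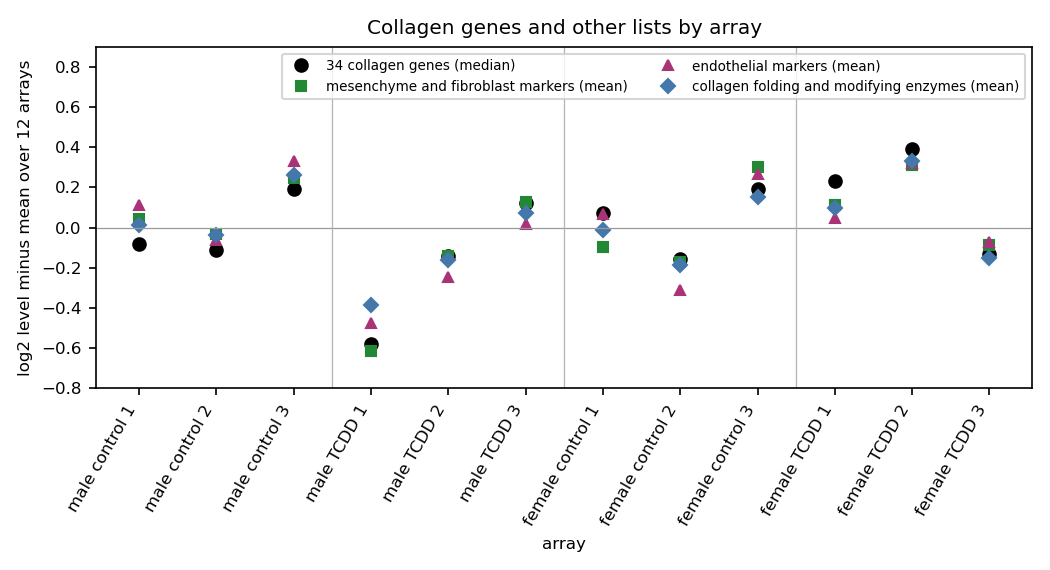
Median deviation of the 34 collagen genes on each array, all on the log2 scale. Beside it are the means of mesenchyme markers, endothelial markers and genes for collagen folding and modification, each less its own mean over the 12 arrays. All 4 symbols are lowest on male TCDD 1 (collagens at -0.58) and the collagens are highest on female TCDD 2 (0.39).

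For 10 collagen genes other probes were kept as well, 13 in all. Over both sexes, 12 of these had the same sign of difference as the probe used and 1 had the other, of Col12a1, a FACIT collagen. For Col11a2 and Col6a3 the probe used lay at -0.0013 and -0.0011, so its sign says little. The largest gap between a further probe and the one used was 0.24 over both sexes. Within a sex some probes lay further apart. In males the used and further probes gave -0.02 and -0.28 for Col1a1, and -0.25 and -0.52 for Col6a3. In females those of Col11a2 gave 0.05 and -0.16. Over both sexes the probes of Col9a1 gave differences of 0.30, 0.24 and 0.47, and those of Col4a1 0.07 and 0.13.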

How the data were processed

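Per the labels' protocols, total RNA of each sample was amplified, labelled with Cy3 and hybridised to an Agilent rat array. Values are spot intensity on a linear scale, as deposited by the authors and written by Agilent Feature Extraction 10.7.1.1 per the file headers (the submitters' processing notes name 9.5.1.1), with probe positions on rn4. The processed intensity, background-corrected and flagged by the authors' software, was used. Control and outlier spots were left out, values were put on the log2 scale less each array's own 75th percentile, and repeated spots were averaged by probe. Probes well above background on at least 3 of 12 arrays with at least 10 values were kept (22431 of 30367), and a gene is its brightest kept probe. From 75.1% to 78.4% of spots were well above background on an array and 0 were saturated, and the 75th percentile lay between 9.86 and 10.3 (log2). The number of arrays limits the precision. The authors' deposited value table holds intensity values with a median of 83.5 in all 12 columns, and was used as an alternative.

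The fit used limma (version 3.58.1, R version 4.3.3) over all 12 arrays with 4 group means and an intensity trend, with Benjamini-Hochberg adjustment over 19357 genes and a threshold of 0.05. TCDD was compared with control within each sex and over both (the mean of the male and female differences), the gap between the sexes was fitted, and controls were compared by sex. The fit was also run on simulated data with independent noise for each gene and array. That run does not bear on spread that genes share, such as the division by Avil. The members and the gene lists were chosen with earlier results of these data known. Named members are those past the threshold, otherwise the 8 of smallest p over both sexes and 3 in each other comparison, a set of 13 always named where measured (Col25a1 and Col28a1 were not), and those that separate the arrays by Avil. In a list, up to 4 genes past the threshold are named, otherwise 2. Genes named in addition, for groups that did not overlap, for a probe that disagreed or as examples, were chosen after their values were seen.

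Whether replicate numbers pair arrays was checked through the correlation, over genes, of deviations from the group means. Between male and female controls it was 0.13, 0.75 and 0.35 for numbers 1 to 3. Both controls numbered 2 had high Avil and the other controls low Avil. Pairing of controls by number therefore cannot be told apart from the division by Avil. With number as a block in controls alone, 0 collagens were called. Between control and TCDD arrays the male values lay between -0.22 and 0.44 and the female ones between -0.70 and -0.37. Between exposed males and exposed females they were 0.65, -0.09 and -0.39. These values do not settle whether the numbers pair any arrays. Alternatives covered background correction, normalization, filters, probe choice, slide, replicate block, Avil, and leaving out each array.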

Additional observations from a re-analysis of the deposited data

How the results depend on the processing

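Counts of collagens called stayed at 0 in each of the 5 comparisons under every alternative run, leave-one-out fits included, apart from log2 Avil as a covariate, which called 1 over both sexes (Col5a3, from 1.83 to 1.09). With slide as a fixed block the median collagen difference was -0.62 in males (also -0.62 within slide 1), -0.31 over both sexes, -0.51 for the gap between sexes and 0.67 between controls of the 2 sexes. Few arrays share a slide across groups, and the cause was not tested. Leaving out 1 array, medians ran from -0.31 to -0.02 in males, 0.03 to 0.31 in females, -0.12 to 0.07 over both sexes, -0.36 to -0.08 for the gap between sexes, and -0.10 to 0.02 between controls.

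Signs of small differences over both sexes turned in some settings, and the cause was not tested. Slide as a fixed block gave -0.042 for Col1a1 and -0.25 for Col11a1, and 0.13 for Col1a1 between male and female controls. With log2 Avil as a covariate Col3a1 was 0.14 and Col22a1 -0.039. Without the arrays with high Avil, Col1a2 was 0.13, Col3a1 0.24, Col18a1 0.010 and Col22a1 -0.058, and Col4a5 in males was 0.0034. With the glial mean as a covariate Col6a1 was 0.012, Col1a2 0.054, Col3a1 0.20, Col18a1 0.024 and Col22a1 -0.29. Leaving out 1 array, Col1a1 ran from -0.070 to 0.15, Col3a1 from -0.14 to 0.061 and Col11a1 from -0.088 to 0.22. Without a change of sign, Col2a1 ran from 0.14 to 0.36, Col4a5 from -0.44 to -0.20, Col7a1 from -0.58 to -0.27 and Col22a1 from 0.39 to 0.94. Col5a3 with log2 Avil as a covariate ran from 1.01 to 1.22.

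The replicate block left the medians at -0.19 (males), 0.14 (females) and -0.02 (both sexes), and 0 collagens called. Genes called over both sexes numbered 4, against 2 with this block, 9 with median centring, 15 with slide as a fixed block, 11 with log2 Avil as a covariate, 10 with the glial mean and 0 without the arrays with high Avil. Same-numbered arrays are only known to share a number. Paired by number in controls alone, a fit added after the data were seen, 0 collagens were called. Arrays without counts give no depth, and Col10a1 lay near background on most arrays, so no difference of it is given.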
